A study of Mus musculus with 162 samples.

Results

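The 12 cells that the submitters labelled Cajal Retzius were compared, gene by gene, with the 35 cells that they labelled Glutamatergic 1 (23 cells) or Glutamatergic 2 (12 cells). All 47 cells came from the Htr3a Cre line, at an embryonic age of E17.5-E18.5 in mice, and had passed the submitters' quality control. They are part of 114 passed cells of that line, of 148 passed cells of all 3 lines and of 162 cells in the series. The members were defined by the type, line and quality labels alone, but chosen with earlier results of these data known. Every cell labelled Cajal Retzius was among the 12.

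Cajal-Retzius cells are early born neurons that lie just under the surface of the developing cortex. They secrete reelin, a large extracellular glycoprotein that binds the receptors ApoER2 (gene Lrp8) and VLDLR on migrating neurons, whose adaptor Dab1 then passes the signal on and helps to order the cortical layers. They use glutamate as their transmitter, mostly form outside the cortical ventricular zone proper (in the cortical hem, septum and pallial border), reach the surface by tangential migration, and many of them die after birth. The glutamatergic cells they are set against here are labelled only as such; projection neurons of the cortical plate are the textbook class of that name.

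The series measured RNA of single embryonic neurons whose cytosol was drawn into a patch-clamp pipette. Cre lines driven by Htr3a, Lhx6 and Nex marked the cells, and no agent was given. In the Htr3a line the serotonin receptor gene's regulatory DNA drives Cre, so the cells studied are those which this driver marked or which lay beside them, and the labels do not say which. No label names an animal, litter, slice or sequencing batch. Each group therefore counts as 1 sample, the values over cells describe the spread between cells only, no p-value was computed, and a difference in type cannot be told apart from one in animals or batches.

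The submitters' type labels probably rest on the expression of these same cells, although their basis is not given in the sources used here. Genes that part the labels are given as a description and are no independent evidence of the types. Levels are counts per 1000000 (CPM) of the counts summed over a group, or the CPM of single cells. The difference of a gene is its mean over cells of log2(CPM + 1) in Cajal Retzius cells minus that in glutamatergic cells. A gene is called higher or lower where this difference is at least 2 either way and the CPM of summed counts differ at least 2-fold the same way.

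Cajal Retzius cells held 6554657 to 19119670 counts and a median of 6714 detected genes (4140 to 10925). Glutamatergic 1 cells held a median of 5183 genes (2716 to 9170) and Glutamatergic 2 cells 7642 (5636 to 9510). The medians of the 2 Glutamatergic labels thus lay on either side of the Cajal Retzius cells. Mitochondrial genes took 0.165% to 1.58% of the counts of a Cajal Retzius cell and 0.0709% to 6.0% of those of a glutamatergic cell.

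The labels were set beside marker genes as a description, since they may rest on the same genes. Reln, Trp73, Calb2 and Ndnf each had a count in 12 of 12 cells, and 11 of the 12 cells held all 4 at 10 CPM or more. The exact 95% interval of a share of 12 of 12 is 73.5% to 100% if cells are taken as independent draws, which the labels cannot show. No glutamatergic cell held more than 2 of the 4 at that level. Of 5 projection neuron markers (Neurod2, Neurod6, Slc17a7 and Bcl11b among them), all 35 glutamatergic cells held at least 2 at 10 CPM or more.

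Some of the 12 cells stood apart. Cells 1, 3 and 12 also held at least 2 of the 5 projection neuron markers at 10 CPM or more. Cell 3 had Trp73 at 0.931 CPM, against 62.8 CPM or more in the other 11 cells, together with 146 CPM of Neurod2. In cell 12, which had the fewest genes, Neurod6 stood at 371 CPM and the 5 interneuron markers (Gad1, Gad2, Dlx1, Dlx5 and Lhx6) summed to 1192 CPM, most of it Lhx6 (595 CPM) and Dlx1 (442 CPM). Interneuron markers also summed to 215 CPM in cell 10 and to 72.6 CPM in cell 9. The part of other cells' RNA in any result below was not tested, and the main counts are given again without cells 1, 3 and 12.

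A gene was measured where 25% or more of the cells in a group had a count. Of 10953 measured genes, 870 (7.94%) were higher and 371 (3.39%) lower in Cajal Retzius cells. These shares are the background for every gene group below. The split between higher and lower depended on the scale and on the cells compared. The median gene itself differed by 0.58 on the log2 scale and by -0.03 by summed counts. Higher genes made up 70.1% of the called genes, but 44.7% (551 higher, 681 lower) after all differences were centred on the median gene. By summed counts alone they made up 38.8%. Against Glutamatergic 1 cells alone 83.1% of calls were higher (1313 and 267 genes, 12.2% and 2.48% of those measured there), and against Glutamatergic 2 cells alone 36.3% (630 and 1106 genes, 5.37% and 9.42%). In the cells whose numbers of genes overlapped the share was 55.2%. Without cells 1, 3 and 12 it was 76.7%, with 1151 higher and 350 lower genes. A gene like the median gene thus has a difference near 0.58, and the differences below are to be read against that value. The calls that held against both Glutamatergic labels taken apart numbered 452 higher (4.23%) and 218 lower (2.04%). The genes singled out by size below were all among them, and their selection required a log2 difference of at least 2 against each label.

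**Figure D1:**
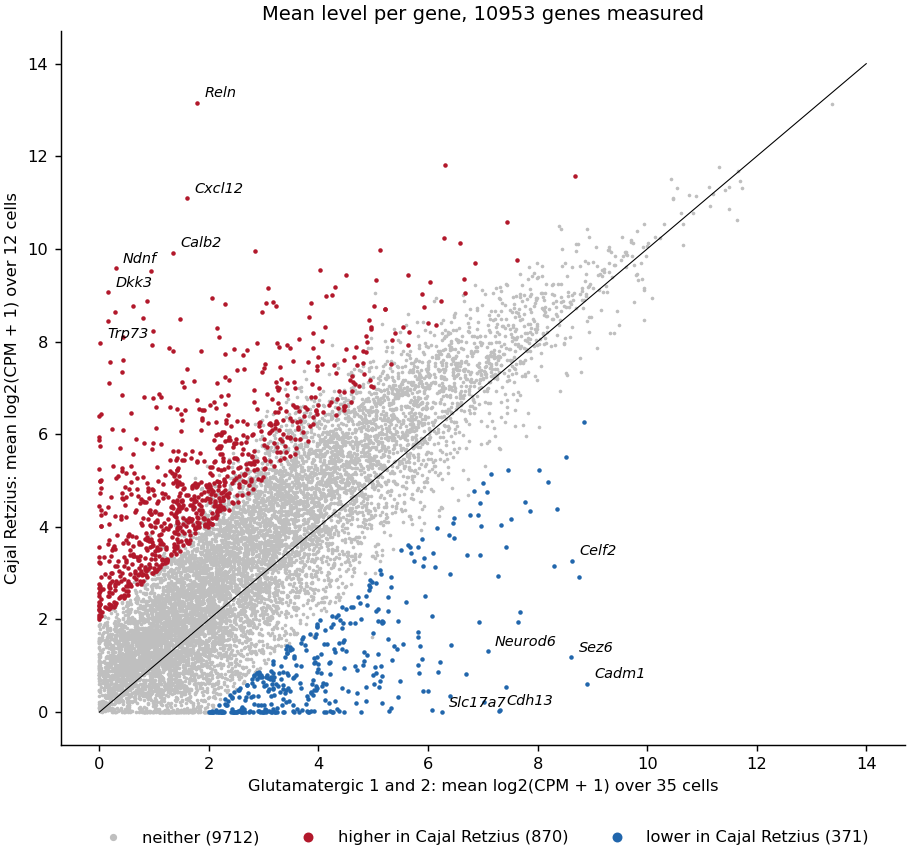
Each point is 1 of 10953 genes, placed by the mean over cells of log2(CPM + 1) in glutamatergic cells (x axis) and in Cajal Retzius cells (y axis); colours mark the 870 genes called higher and the 371 called lower. Reln stands at the top of the plot with a difference of 11.37, and Cadm1 lies furthest below the diagonal at -8.29.

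The 12 and 35 cells did not overlap at all for 8 genes (0.073%), each higher in every Cajal Retzius cell than in any glutamatergic cell: Ache, Calb2, Cd200, Ndnf, Reln, Slc7a10, Thsd7b and Trp73. No gene was lower in every Cajal Retzius cell (0%). Without cell 3 the number was 13, with Cenpf, Cxcl12, Cxcr4, Dkk3 and Fkbp9 added, and without cells 1, 3 and 12 it was 18. In the authors' normalized table Calb2, Cd200 and Slc7a10 overlapped and 5 genes were left, and after thinning Thsd7b and Trp73 overlapped and 6 were left.

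Reln had the largest difference of the genes named by size. The gene, which encodes reelin, stood at 2543 CPM in the lowest Cajal Retzius cell, 10218 CPM in the median cell and 17602 CPM in the highest, and at 0, 0 and 439 CPM in the lowest, median and highest glutamatergic cell. The ranges did not meet, and the lowest Cajal Retzius cell was cell 1. The mean was 13.16 ± 0.79 (SD over 12 cells) against 1.78 ± 3.09 (SD over 35 cells) on the log2 scale, a difference of 11.37. By summed counts reelin RNA was at 10152 CPM against 47.3 CPM. It took 0.254% to 1.76% of all counts of a Cajal Retzius cell. Reln lies on chromosome 5, from 21884454 to 22344702 on the minus strand of GRCm38.

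Cxcl12, the chemokine ligand of Cxcr4, is known from the meninges as the signal that holds Cajal-Retzius cells at the surface. It ranged from 533 CPM through a median of 2459 to 4333 CPM. In glutamatergic cells it ranged from 0 through a median of 0 to 656 CPM, so that a single glutamatergic cell reached the lowest Cajal Retzius cell. Its difference was 9.49. Cxcr4, the receptor, was itself higher, but at a low level, 12.7 CPM against 0.0795 CPM, with counts in 11 of 12 and 2 of 35 cells (11 and 2 after all cells were thinned to 1828374 counts). Its difference was 3.26.

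Ndnf, a secreted neuron-derived factor, spanned 331 to 1525 CPM with a median of 769, against 0 to 36.3 CPM. The ranges lay apart, and the difference was 9.29. For Dkk3, a secreted protein of the Dickkopf family of Wnt modulators, 11 cells stood at 667 CPM or more and cell 3 at 0.0620 CPM. Glutamatergic cells reached 34.4 CPM at most, 3 of them held a count, and the difference was 8.91. Wnt7b, a Wnt ligand, ranged from 97.0 to 1646 CPM with a median of 976 in Cajal Retzius cells. Glutamatergic cells ran from 0 to 1108 CPM with a median of 20.95, and 15 of them reached the lowest Cajal Retzius cell. The difference of Wnt7b was 4.94.

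Among the other genes named by size were Gdf5, Fibin and Thsd7b. Gdf5, a bone morphogenetic protein relative, was at 371 CPM against 2.70 CPM (difference 7.36, 11 of 12 and 2 of 35 cells). Of its exon bases 40.3% are shared with Gm15557 on the opposite strand, and since the strand of counting is not stated, reads of the pair cannot be told apart. Fibin, the fin bud initiation factor, was at 460 CPM against 5.79 CPM, with a difference of 7.66. Thsd7b, a thrombospondin repeat protein, had 149 to 1074 CPM against 0 to 140 CPM, which left a narrow gap between the groups, and a difference of 8.15.

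**Figure D2:**
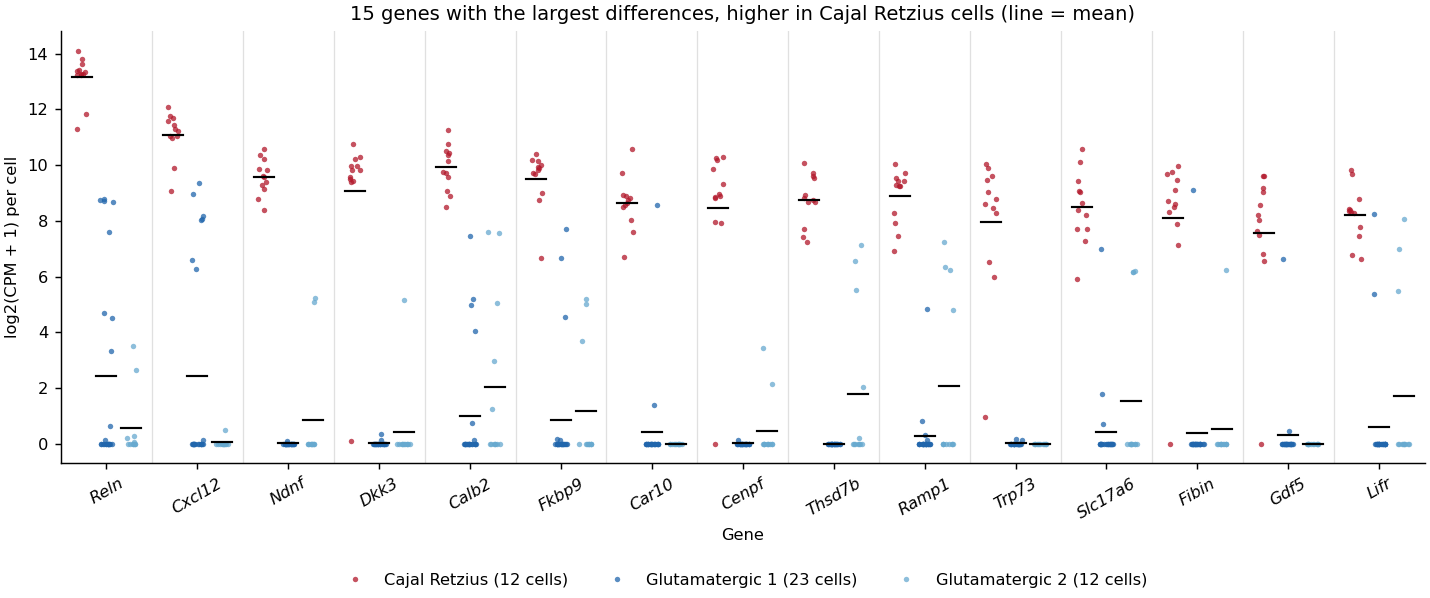
Log2(CPM + 1) of every cell is plotted for the 15 genes with the largest higher differences (x axis), with 1 colour for each type label and a line at each mean. For most genes the 12 Cajal Retzius cells form 1 band well above 0 while most glutamatergic cells lie at 0; cell 3 is the low point of Trp73, Dkk3 and Cenpf.

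Glutamatergic cells were not free of these transcripts. Reln reached 10 CPM in 8 of the 35 cells and Cxcl12 in 7, and 4 cells held both. No glutamatergic cell held more than 5 of the 15 genes at 10 CPM, the median cell held 1, and 9 cells held none. Cajal Retzius cells held 11 (cell 3) to 15 of them.

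Beyond its ligand, the reelin pathway did not follow Reln. Of 21 measured members 1 was higher (Reln) and 2 were lower, and the list's median difference was 0.85 beside 0.58 over all genes. Dab1, the intracellular adaptor of the reelin receptors, was lower: the median Cajal Retzius cell had 0 CPM and the highest 165 CPM, while glutamatergic cells had a median of 204 CPM and a highest of 963 CPM. It was detected in 4 of 12 and 27 of 35 cells (3 and 26 after thinning), with a difference of -4.21. Serpine2, a secreted protease inhibitor, was the other at 0.0321 CPM against 185 CPM (difference -3.10). The receptors did not pass the rule. Lrp8 was at 39.6 CPM against 94.5 CPM with a difference of -1.65, and Vldlr at 28.8 CPM against 106 CPM with a difference of -1.34. Fyn, the kinase that acts on Dab1, was at 175 CPM against 158 CPM (difference 0.56).

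Transcription factors known from Cajal-Retzius cells and their birthplaces differed often against the background. Of 18 measured, 10 were higher and 2 lower, with a median difference of 3.11, and all 12 calls held against each Glutamatergic label. The list was chosen with earlier results of these data known, and the type labels may rest on such genes. Its share beside the background is therefore a description only, and the same limit holds for the projection neuron and marker lists. Trp73 encodes p73, the p53 relative of hem-derived Cajal-Retzius cells. It was at 0.931 to 1050.3 CPM with a median of 415, against 2 counts in all 35 glutamatergic cells together. That is 466 CPM against 0.00548 CPM (95% interval of counting error 0.000664 to 0.0198), and the difference was 7.96. Trp73 lies on chromosome 4, from 154056253 to 154140208 on the minus strand.

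The LIM homeobox genes Lhx1 and Lhx5 were next. Lhx5 stood at 172 CPM with counts in 10 of 12 cells, against 2 counts in the glutamatergic cells, and Lhx1 at 85.1 CPM in 10 of 12 cells against 1 count. Cells 9 and 12 were the 2 without either gene. Their differences were 5.73 and 4.72. Ebf2 and Ebf3, helix-loop-helix factors of the early B-cell factor family, were each found in 9 of 12 cells. Ebf3 had no count in any glutamatergic cell, which allows a share of up to about 8.57% of cells with a count (an approximate limit). It was at least 7523-fold higher by summed counts. Zic1, a zinc finger factor of septal and hem territories, was seen in 8 of 12 cells at 13.8 CPM and in no glutamatergic cell (difference 2.01).

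Nhlh2, a neuronal helix-loop-helix factor, stood at 163 to 1468 CPM in 11 cells and had no count in cell 12. The glutamatergic median was 0 and the highest 314 CPM, and the difference was 7.02. Nr2f2, the orphan nuclear receptor COUP-TFII, ranged from 11.6 to 756 CPM against 0 to 41.2 CPM (difference 7.17). Emx2, a homeobox gene of the medial pallium, was at 66.3 CPM against 2.83 CPM (difference 4.68). Mab21l1, at 126 CPM against 0.0822 CPM (difference 4.23), shares 39.4% of its exon bases with Nbea on the opposite strand.

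These 10 factors were not shared evenly among the 12 cells. Cell 7 held all 10 at 10 CPM or more and cells 2 and 10 held 9. Cells 4, 5, 6 and 8 held 8, cells 1, 3 and 11 held 6, cell 9 held 5 and cell 12 held 3. Cell 12 had Trp73 at 1050.3 CPM, Zic1 at 51.4 CPM and Nr2f2 at 15.9 CPM, and no count of Lhx1, Lhx5, Ebf2, Ebf3, Mab21l1, Emx2 or Nhlh2.

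**Figure D3:**
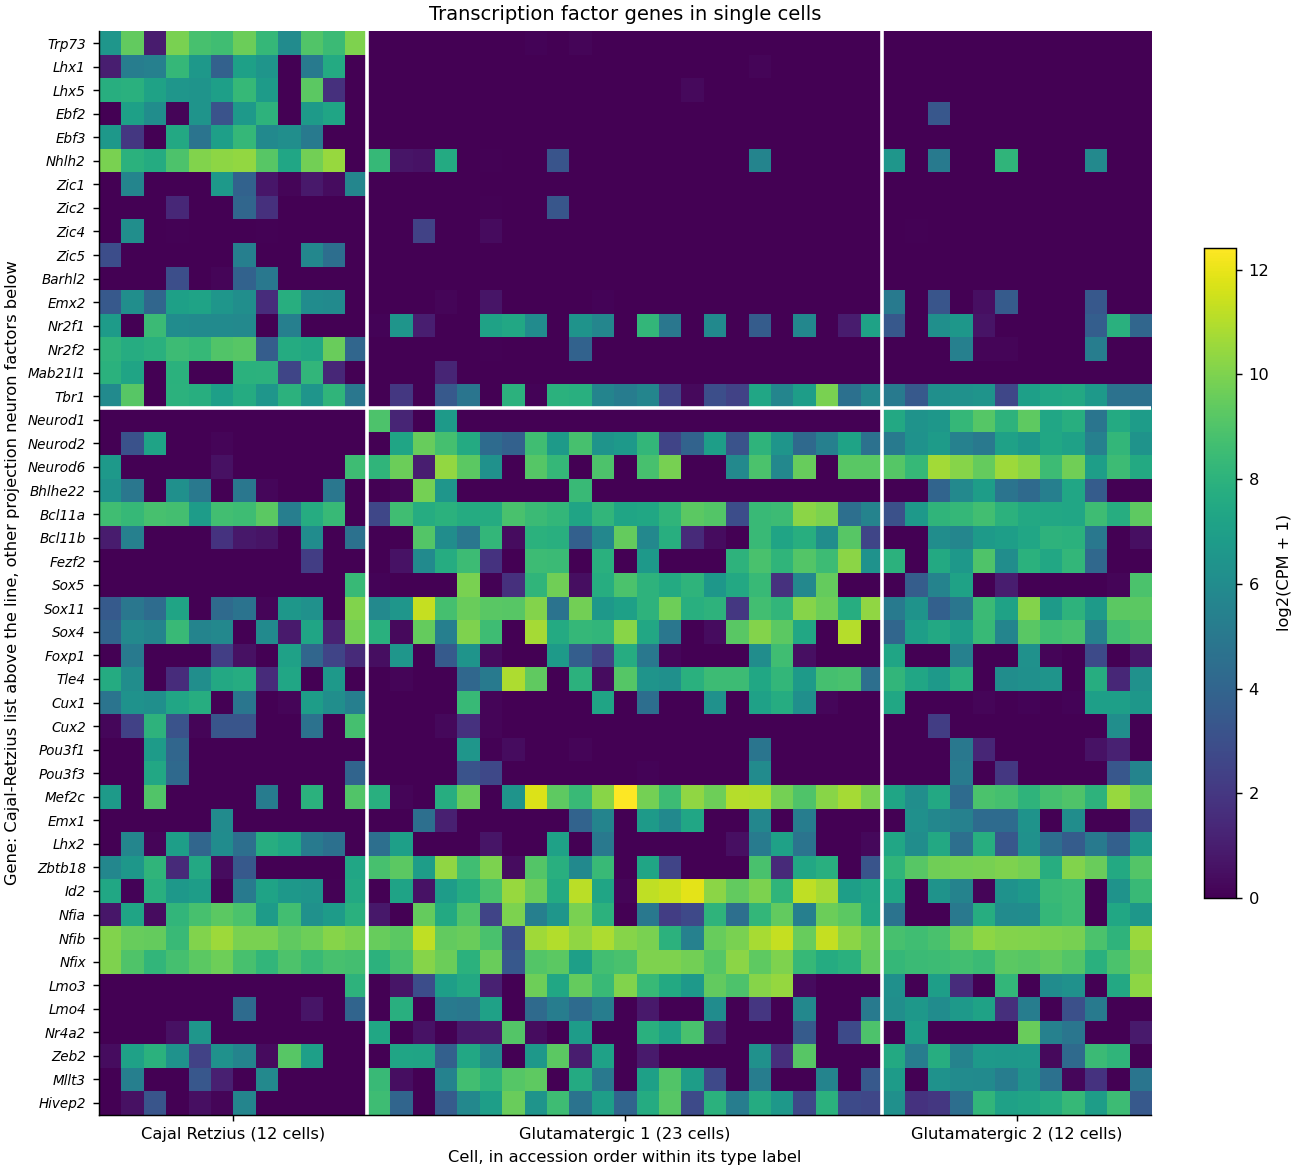
Log2(CPM + 1) is shown as colour for transcription factors of the Cajal-Retzius and projection neuron lists (rows, some left out) in each of the 47 cells (columns), ordered by type label. Brighter colours mark higher levels: the Cajal Retzius columns are bright for Nhlh2, Nr2f2 and Trp73 and patchy for Zic1, Ebf2, Ebf3 and Mab21l1.

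Transcription factors of cortical projection neurons went the other way. Of 33 measured, 16 were lower and 1 higher (median difference -1.997), and 12 of the 16 were lower against both Glutamatergic labels. Neurod6, a helix-loop-helix factor of postmitotic pyramidal neurons, had a count in 3 of 12 cells, at 371 CPM in cell 12, 100 CPM in cell 1 and 0.466 CPM in cell 6. Glutamatergic cells had a median of 450.1 CPM, and 6 of the 35 had no count. The difference was -5.78, and -7.03 without cells 1, 3 and 12. Neurod2 followed the same course, with 3 of 12 against 34 of 35 cells and a difference of -5.31. Fezf2, which specifies subcerebral neurons, was at 0.462 CPM against 192 CPM (difference -4.96) and Bcl11b, its partner in that fate, at 13.1 CPM against 126 CPM (difference -3.29).

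Mef2c, an activity-linked factor, showed how far single cells mattered. It was at 524 CPM in cell 3, 521 CPM in cell 12, 241 CPM in cell 10 and 108 CPM in cell 1, at 35.7 CPM in cell 8, and at 0 in the other 7. Its difference of -5.14 became -6.85 without cells 1, 3 and 12. The exception was Cux2, a homeobox gene of upper layer neurons, which was higher at 68.2 CPM against 2.04 CPM (difference 2.53). Most of its counts came from cells 12 (5703 counts) and 3 (4152 counts), and no other of the 12 cells held more than 473. Several factors of the list were shared: Nfib stood at 902 and 965 CPM, Nfix at 483 and 562 CPM and Bcl11a at 313 and 285 CPM in Cajal Retzius and glutamatergic cells. Tbr1, which both cell classes are known to express, was at 167 CPM against 71.9 CPM with a difference of 1.86, and did not pass the rule.

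The vesicular glutamate transporters parted the groups in opposite directions. Slc17a6 (VGLUT2) spanned 59.0 to 1529.9 CPM with a median of 366 in Cajal Retzius cells and 0 to 127 CPM with a median of 0 in glutamatergic cells. In 4 glutamatergic cells it reached the lowest Cajal Retzius value, and the difference was 7.71. Slc17a7 (VGLUT1) had no count in any of the 12 cells, which allows a share of up to about 25% of cells with a count (an approximate limit). It was present in 33 of 35 glutamatergic cells up to 729.6 CPM, so that it was at least 9678-fold lower (difference -6.26). It was the 1 gene (0.00913%) with a count in at least 75% of glutamatergic cells and none in Cajal Retzius cells. The third transporter, Slc17a8, was at 0 in the 12 cells and at 13.2 CPM in glutamatergic cells.

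Of 16 measured glutamatergic neuron markers, 2 were higher (Slc17a6 and Baiap2) and 9 lower, with a median difference of -2.38. Camkv, a kinase-like calmodulin binding protein, was found in 1 of 12 cells and 33 of 35 (difference -6.90). Arpp21, a cyclic AMP regulated phosphoprotein, had 7 counts in all 12 cells together, 0.0449 CPM against 290 CPM, and a difference of -7.26. Sybu, which links cargo to kinesin, was at 18.5 CPM against 554 CPM (difference -5.51).

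The GABAergic list gave 2 higher and no lower of 8 measured genes, and neither of its 2 calls concerned GABA synthesis. Abat, the enzyme that degrades GABA, was at 697 CPM against 39.1 CPM, ranging from 7.82 to 1443 CPM in Cajal Retzius cells, and its difference was 6.52. Htr3a, the driver gene of the line and a serotonin-gated channel, was at 91.7 CPM against 9.92 CPM. It ranged from 0 to 398 CPM with a median of 43.5 and had a count in 9 of 12 cells against 9 of 35, so the groups overlapped widely (difference 3.04). Gad1 was at 0.744 CPM and Gad2 at 0.0834 CPM in Cajal Retzius cells, and Slc32a1, the vesicular GABA transporter, was at 0. Ache, acetylcholinesterase, was chosen after its values were seen: it ranged from 481 to 2344 CPM against 0 to 338 CPM, with no overlap and a difference of 7.12.

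Genes of GABA and glycine receptors and of chloride transporters were lower where they differed. None of the 14 measured was higher and 5 were lower (median difference -0.87), with Slc12a5 the only transporter among the 5. Gabra5, the receptor's alpha 5 subunit, was found in 1 of 12 and 26 of 35 cells (difference -5.54). Gabrb1 had 2.39 CPM against 149 CPM (difference -3.66). Glra2, the fetal glycine receptor subunit, had no count in the 12 cells against 45.8 CPM (difference -3.00). Slc12a5, the chloride exporter KCC2, was at 0.744 CPM against 53.3 CPM (difference -3.44). Its counterpart Slc12a2, the importer NKCC1, was at 13.5 CPM against 27.3 CPM with a difference of -0.11. All but 1 of the 5 calls held against both Glutamatergic labels, the exception being Gabra4.

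Of 14 ionotropic glutamate receptor genes 1 was higher and 4 were lower (median difference 0.18). Gria4, an AMPA receptor subunit, was higher at 109 CPM against 23.5 CPM, with 9 of 12 and 16 of 35 cells (difference 2.94). Gria2, the subunit that makes AMPA receptors impermeable to calcium, was lower with a median of 208 CPM against 769 CPM (difference -2.59). That value was -1.93 without cells 1, 3 and 12, below the rule's size. Grin2b, an NMDA receptor subunit, was at 30.2 CPM against 283 CPM (difference -4.34), while its partner Grin1, at 118 CPM against 87.3 CPM, did not pass the rule.

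Among voltage-gated channels the auxiliary alpha2delta subunits of calcium channels were higher. Cacna2d2 ranged from 0 to 148 CPM with a median of 59.4 against 0 to 57.8 CPM with a median of 0 (difference 4.88), and Cacna2d1 from 245 to 1243 CPM against 0 to 869.5 CPM (difference 3.75). Cacna2d3 was at 288 CPM against 123 CPM, with a difference of 2.55 that was 0.14 against Glutamatergic 2 cells alone. Cacna1e, the pore of R-type channels, was lower at a median of 45.4 CPM against 386 CPM (difference -3.96), and Cacnb3, a beta subunit, was lower too (difference -3.44). In all, 3 of 22 sodium and calcium channel genes were higher and 2 lower, with a median of -0.73.

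Potassium and HCN channel genes gave 7 higher and 1 lower of 27, with a median difference of 0.62, close to that of all genes. Only Kcnc2 and Kcnk2 of these were called against both Glutamatergic labels. Kcnc2, a fast delayed rectifier (Kv3.2), was at 99.0 CPM against 4.52 CPM in 9 of 12 and 3 of 35 cells (difference 4.41). Kcnk2, the leak channel TREK-1, was at 74.2 CPM against 5.31 CPM (difference 2.91). Kcnip1, an auxiliary protein of A-type channels, was at 258 CPM against 52.5 CPM with a difference of 3.53 that was 1.41 against Glutamatergic 2 cells.

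Genes of the release machinery differed little: 1 of 29 was higher and 1 lower, with a median of 0.33. Syn2, a synapsin of synaptic vesicles, was at 552 CPM against 106 CPM, from 38.6 to 1635 CPM in Cajal Retzius cells (difference 5.56).

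The neurexins, presynaptic adhesion proteins whose splicing the study is about, differed by gene. Nrxn3 passed the rule. The median Cajal Retzius cell stood at 0 and the highest at 1.83 CPM, whereas glutamatergic cells reached 547 CPM (difference -2.75). Nrxn3 had a median of 0.326 CPM in Glutamatergic 1 cells, with counts in 14 of 23. In Glutamatergic 2 cells the median was 32.0 CPM, with counts in 9 of 12. Nrxn2 had a difference of -0.41. Their ligands gave 3 higher and 4 lower of 21. Car10, a secreted carbonic anhydrase relative that binds neurexins, was at 102 to 1542 CPM in Cajal Retzius cells and had a count in 2 of 35 glutamatergic cells (difference 8.36). Clstn2 and Clstn1, the calsyntenins, were at 538 against 65.8 CPM (difference 5.67) and at 928 against 145 CPM (difference 4.28). Nlgn1, the neuroligin of excitatory synapses, had no count in the 12 cells and 103 CPM in glutamatergic cells (difference -4.24). Against a floor of 3 counts over the group it was 5377-fold lower, which allows for counting error only. Nlgn3 was at 149 CPM against 112 CPM. Of 25 splicing regulators 1 was higher (Mbnl2) and 4 were lower, led by Celf2 (difference -5.37), Rbfox1 (-4.39) and Rbfox3 (-3.94), neuronal RNA-binding proteins.

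Guidance receptors were split within families. Epha3 was higher (difference 2.91), while Epha5 (difference -5.69), Ephb1 (-4.14) and Epha4 (-3.91) were lower; these ephrin receptors steer axons and migrating cells. Ephb1 was at 0 in the 12 cells and at 97.6 CPM in glutamatergic cells. Mdk, the growth factor midkine, was at 37.9 CPM against 0.976 CPM (difference 3.46). Of 20 semaphorin, plexin and neuropilin genes 2 were higher and 3 lower. Plxna2, a semaphorin receptor, was at 1.03 CPM against 178 CPM (difference -5.44) and Plxnd1, at 37.2 CPM against 4.42 CPM, was higher (difference 3.202). Of 14 netrin, Slit and Robo genes 3 were higher and 3 lower, and Unc5b alone was called against both Glutamatergic labels (38.7 CPM against 1.73 CPM, difference 3.10). Robo2, a Slit receptor, was at 457 CPM against 84.4 CPM (difference 4.15, and 1.99 against Glutamatergic 2 cells).

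Cadherins and protocadherins, adhesion proteins that sort cells, were lower in 9 and higher in 3 of 27 cases, with a median of -1.23. Cdh13, a cadherin without a cytoplasmic domain, had 4 counts in the 12 cells. Its level was 0.0257 CPM (95% interval 0.00699 to 0.0657) against 544 CPM, and its difference -7.26. Cdh4 was higher, with 57.5 to 2121 CPM against a glutamatergic median of 0 and a highest of 758 CPM (difference 6.88). The atypical cadherins Fat3 (difference 4.45) and Celsr2 (difference 3.47) were the other 2 higher genes.

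Calcium binding proteins gave 1 higher and 6 lower of 19. The higher was Calb2, calretinin, at 360 to 2467 CPM with a median of 995 against 0 to 191 CPM with a median of 0. The ranges did not meet on the CPM scale, but met in the authors' normalized table, and the difference was 8.57. Caln1, Ncald and Ryr3, the first 2 being calcium sensors and the third a calcium release channel, had differences of -4.98, -4.98 and -4.20.

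Of 17 measured apoptosis and p53 family genes 4 were higher and none lower, with a median of 1.18. They do not share 1 function: Trp73 is described above, Bbc3 (PUMA) promotes cell death, Diablo frees caspases from their inhibitors, and Xiap is such an inhibitor. Diablo was at 630 CPM against 107 CPM (difference 4.85), with 21.5% of its exon bases shared with B3gnt4 on the opposite strand. In all, 3 genes overlap its exons, and 17.6% of the 50-base stretches of its transcripts also occur in transcripts of other genes. Bbc3 was at 67.6 CPM against 21.1 CPM (difference 2.56, and 1.29 against Glutamatergic 2 cells) and Xiap at 34.9 CPM against 7.91 CPM (difference 2.21). Bax was in all 12 cells at 50.5 to 183 CPM, with 99.4 CPM against 122 CPM by summed counts and a difference of 1.18.

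Of the remaining lists, extracellular matrix and secreted proteins gave 3 higher (Reln, Ndnf and Spock2) and 4 lower of 22, and the chemokine and migration list 4 higher and 3 lower of 17. Wnt and R-spondin genes gave 2 higher (Wnt7b and Dkk3) and 1 lower of 10, and Notch genes 1 lower (Hes6) of 7. Cytoskeleton and axon growth genes gave none higher and 4 lower of 33, among them Dcx (doublecortin, a microtubule protein of migrating neurons), at 88.1 CPM against 356 CPM with a difference of -3.36. Immediate early genes gave 1 higher (Dusp1) and 2 lower (Nr4a3 and Homer1) of 15.

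Cenpf, a kinetochore protein of dividing cells, was among the 15 largest differences, at 613 CPM against 0.332 CPM, with counts in 11 of 12 and 3 of 35 cells and a difference of 8.28. The 11 cells held 241 to 1254 CPM and cell 3 held none. Other cell cycle genes did not accompany it. Mki67 was found in cell 3 alone, at 216 CPM, Cdk1 in cell 8 alone at 111.5 CPM (12.2 CPM over the group), and Top2a in 3 cells, 160.04 CPM at most.

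The rest of the 15 higher genes have varied roles. Fkbp9, an endoplasmic reticulum protein folding enzyme, spanned 99.3 to 1353 CPM against 0 to 207 CPM (difference 8.57). Ramp1, which joins the calcitonin-like receptor to form the CGRP receptor, spanned 121 to 1054 CPM against 0 to 151 CPM (difference 8.003). Lifr, a receptor subunit for leukaemia inhibitory factor, spanned 98.9 to 896 CPM against 0 to 302 CPM (difference 7.25). A single glutamatergic cell reached the lowest Cajal Retzius cell for Ramp1, 2 for Fkbp9 and 3 for Lifr.

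A set of 5 genes (0.0456%), singled out after their values were seen, had a count in at least 75% of Cajal Retzius cells and none in the 35 glutamatergic cells. Ripk4, a receptor-interacting kinase, was found in 11 cells at 171 CPM. Angpt1, the vascular ligand angiopoietin 1, was found in 10 cells at 259.6 CPM and Gpr149, an orphan receptor, in 10 at 159.7 CPM. Kcnj5, an inward rectifier potassium channel, was in 9 cells at 117 CPM, and Ebf3 is described above. Thinning left these numbers of cells unchanged.

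Of the lower genes, Cadm1, a synaptic adhesion protein of the immunoglobulin family, had the largest difference at -8.29. Of the 12 cells 8 had no count, 3 had less than 1 CPM and cell 10 had 110.1 CPM, against 2.95 to 2558 CPM with a median of 688 in all 35 glutamatergic cells. Cell 10 alone kept the groups from lying apart. Sez6, a dendritic membrane protein linked to seizures, was at 0 in 10 of 12 cells, at 106 CPM in cell 1 and at 180.2 CPM in cell 12, against a median of 745 CPM. Its difference was -7.43, and -8.61 without cells 1, 3 and 12.

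Sparcl1 (hevin), a secreted matrix protein, was at 0.141 CPM against 624 CPM (difference -6.80). Nell2, a secreted ligand of Robo3, was at 1.26 CPM against 329 CPM (difference -6.04). Matk, a kinase that inhibits Src family kinases, was at 6.25 CPM against 325 CPM (difference -5.87). Cd24a, a surface sialoglycoprotein of young neurons, had a median of 0.129 CPM and a highest of 333 CPM, against a median of 674 CPM (difference -5.84). The median Cajal Retzius cell held 1.5 of the 15 lower genes at 10 CPM or more and the median glutamatergic cell 14, with at most 5 in any Cajal Retzius cell and at least 6 in any glutamatergic cell.

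**Figure D4:**
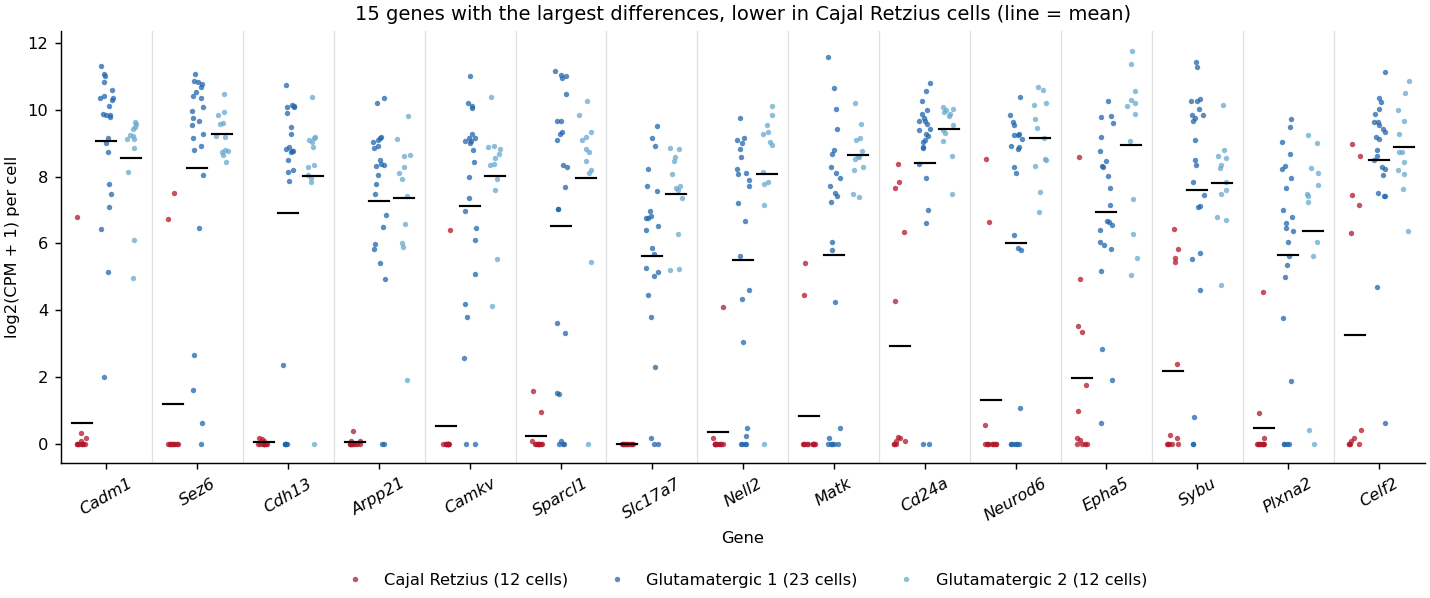
Log2(CPM + 1) of every cell is plotted for the 15 genes with the largest lower differences (x axis), with 1 colour for each type label and a line at each mean. Most Cajal Retzius cells lie at 0, the higher points (110.1 CPM of Cadm1 in cell 10, for example) belong to single cells, and several glutamatergic cells are also at 0 for genes such as Neurod6 and Matk.

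Markers of other cell types were looked at beside these groups. Microglia markers summed to 0 to 1366 CPM in Cajal Retzius cells (median 24.6) and to 0 to 6072 CPM in glutamatergic cells (median 12.8), with 100 CPM or more in 3 of 12 and 9 of 35 cells. None of the 6 measured was called, and P2ry12, Tmem119 and Ptprc were at 0 in the 12 cells. Endothelial and mural markers summed to 0 to 93.3 CPM against 0 to 9.42 CPM; 1 of 2 measured, the pericyte gene Rgs5, was higher (22.5 CPM against 0.142 CPM), and Cldn5, Flt1, Tek and Cdh5 were at 0. Meningeal fibroblast markers summed to 369 to 2779 CPM in Cajal Retzius cells (median 984) and to 217 to 5631 CPM in glutamatergic cells (median 766), with no call among the 2 measured, Nnat and Col1a1. Nnat, which neurons also express, had a count in all 47 cells and stood at 1253 CPM against 1717 CPM. Col1a1 had 13, 102 and 202 counts in cells 6, 7 and 9, Igf2 had 881 counts in cell 12 and Crabp2 had 93 counts in cell 7. Col1a2, Col3a1, Dcn and Lum were at 0 in the 12 cells. Erythrocyte genes summed to 0 to 53.4 CPM against 0 to 2029 CPM. Astrocyte and oligodendrocyte markers gave no call, and of 7 radial glia genes Ptprz1 was lower. Its difference was -1.92 without cells 1, 3 and 12, below the rule's size. The part of such RNA in the results was not tested.

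**Figure D5:**
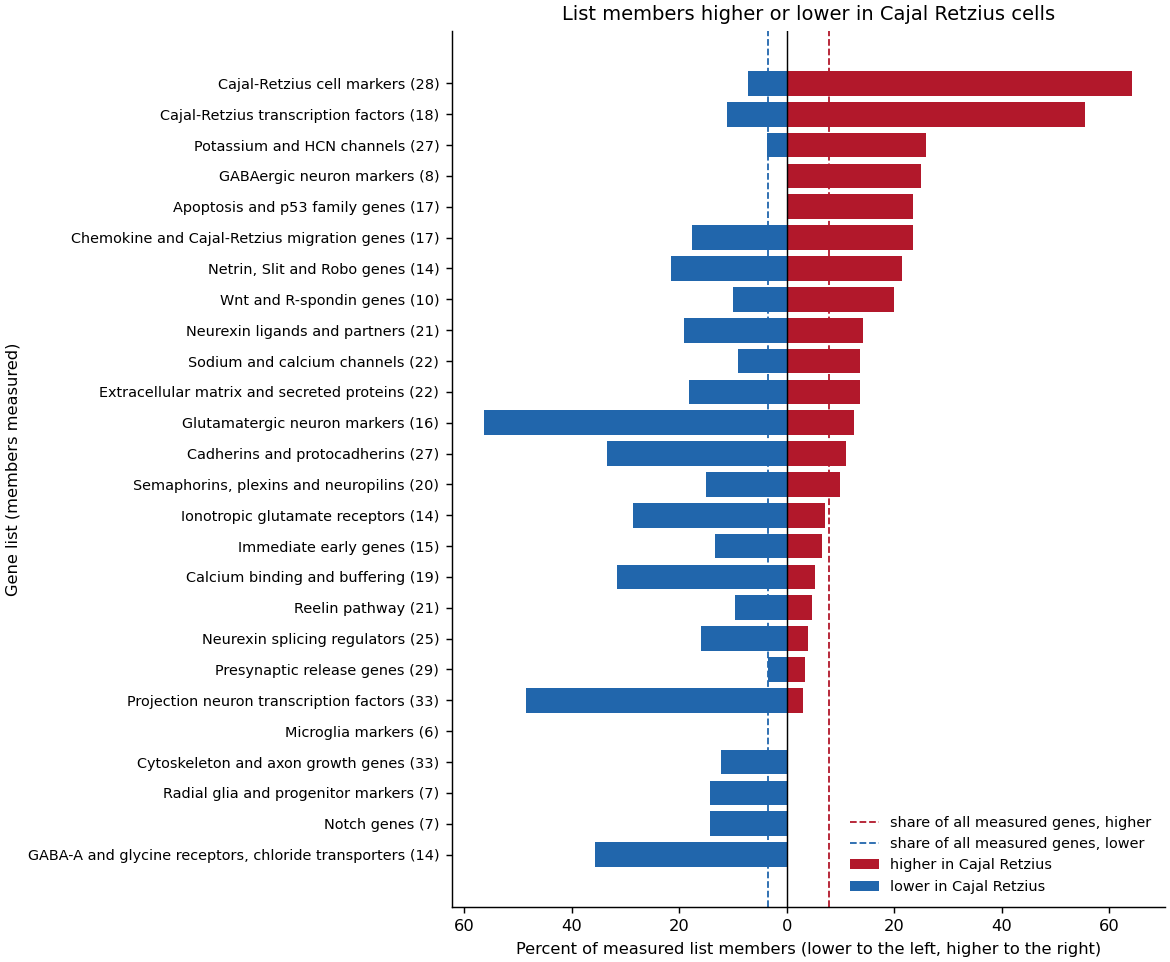
Bars give the percent of measured members called higher (right) and lower (left) for the gene lists with 5 or more measured members, whose number is in parentheses; dashed lines mark the shares over all measured genes. Cajal-Retzius markers (18 higher and 2 lower of 28) extend furthest right, and glutamatergic neuron markers (2 and 9 of 16) and projection neuron factors (1 and 16 of 33) extend furthest left.

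The list of Cajal-Retzius markers, which overlaps the lists of transcription factors and contains the 4 markers used above, gave 18 higher and 2 lower of 28 measured. Rspo3, an R-spondin of the Wnt pathway, was among the lower genes at 0.0513 CPM against 132 CPM (difference -3.64).

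In the other types of the Htr3a line Reln was present as well. The level was 1048 CPM in Undefined, 821 CPM in VZ-derived and 734 CPM in GABAergic cells. MGE-derived 1 cells had 635 CPM, MGE-derived 2 cells 597 CPM and CGE-derived cells 536 CPM, all below the 10152 CPM of Cajal Retzius cells. Single cells overlapped, as the lowest Cajal Retzius cell had 2543 CPM. The highest VZ-derived, Undefined, MGE-derived 1 and CGE-derived cells had 6205, 5914, 2970 and 2862 CPM. The highest MGE-derived 2 and GABAergic cells, at 2396 and 1621 CPM, lay below it. Nr2f2 was at 289 CPM in CGE-derived cells, next to 287 CPM in Cajal Retzius cells, whereas Htr3a was at 1444 CPM in the former. Trp73 was at 93.7 CPM in VZ-derived cells, with 1067 CPM in the highest cell and a median of 0, at 27.6 CPM in Undefined cells, and at or below 0.579 CPM in the types other than these and Cajal Retzius. Cadm1 was at 13.5 CPM in Cajal Retzius cells, at 289.7 CPM in GABAergic cells and above that in every other type.

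As a description of the cells as wholes, each cell's expression was correlated with that of every other (Spearman's rho over genes, which are not independent replicates). The median rho was 0.436 over 66 pairs of Cajal Retzius cells, 0.310 between Cajal Retzius and Glutamatergic 1 cells and 0.354 between Cajal Retzius and Glutamatergic 2 cells. Within the Glutamatergic labels it was 0.305 and 0.404. The nearest cell of each of the 12 Cajal Retzius cells was another of the 12. The labels may rest on the same expression, so this is no independent evidence of the types. For Glutamatergic 1 cells the nearest cell had the same label in 17 cases and was Glutamatergic 2 in 6. For Glutamatergic 2 cells it had the same label in 9 cases and was Glutamatergic 1 in 3. Pairs differ in depth, which moves rho.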

How the data were processed

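Cytosol of single cells was aspirated and sequenced as total RNA, per the labels' protocols. The authors deposited raw counts of reads for each gene in each cell and a normalized signal table equal, for 99.8% of values within 0.1%, to the counts over 1 factor per cell. Trimmomatic, STAR and featureCounts were used with GRCm38, per the submitters' processing notes, without versions. The Ensembl count table was used: 22570 of 22880 rows received a symbol from GENCODE M21, and 22879 genes remained after summing. A second count table, by symbol, was incomplete here and served as an alternative. The labels name no molecular identifiers, so reads may not be separate molecules, and Poisson 95% intervals cover counting error only. Clopper-Pearson 95% intervals of a share of cells, and the limit given next, treat cells as independent draws. They leave out differences between animals or batches. The limit of the share where no cell had a count was 3 over the number of cells. That approximation lies somewhat below the exact limit.

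Counts were scaled to CPM by each cell's total, with a pseudocount of 1. A fold against 0 counts was computed against a floor of 3 counts over the group. Python 3.11.15, numpy 2.4.6, pandas 2.3.3, scipy 1.17.1 and matplotlib 3.10.9 were used. The calculation was also run on simulated counts with known folds. These had equal detection rates in both groups and no animals, batches or unlike Glutamatergic labels. They cannot show whether the calls hold in these data.

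Genes were named where the higher group had a count in 75% or more of its cells and 20 CPM or more by summed counts, with a 4-fold difference, a log2 difference of at least 2 against both Glutamatergic labels and without the cell of the highest level, and then the 15 largest in each direction. The markers, neurexins, Htr3a and up to 4 members of each of 31 lists were added. Other genes and single cells were named after their values were seen. The members and lists were chosen with earlier results of these data known. Some genes that the lists count are not reported here by name.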

Additional observations from a re-analysis of the deposited data

How the results depend on the processing

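All 15 higher and 15 lower genes named by size kept their calls under each alternative on the full table, and no named gene that was called changed sign. The naming rule had already required large differences against each Glutamatergic label and without the cell of the highest level. The kept calls are therefore no independent sign of stability. Of the 870 higher genes 6 had the opposite sign against Glutamatergic 2 alone. Higher genes numbered 247 and 1311 at pseudocounts of 10 and 0.1, 1528 at a log2 difference of 1, 1313 against Glutamatergic 1 alone and 551 after centring. Lower genes numbered 101 and 705 at those pseudocounts, 1047 at a difference of 1, 1062 by summed counts alone, 1106 against Glutamatergic 2 alone, 579 in cells with overlapping numbers of genes and 681 after centring. The partial table by symbol gave 441 higher, 207 lower and 3 non-overlapping genes; over the same symbols the Ensembl table gave 334, 141 and 3. Non-overlapping higher genes numbered 5 in the authors' normalized table (without Calb2, Cd200 and Slc7a10), 19 against Glutamatergic 2 alone and 18 without cells 1, 3 and 12; lower ones numbered 7 against Glutamatergic 2 alone and 2 in cells with overlapping numbers of genes. Leaving out each Cajal Retzius cell gave 816 to 955 higher, 356 to 405 lower, 8 to 13 non-overlapping higher and 0 to 1 non-overlapping lower genes. The cause of these shifts was not tested. Centring, the removal of 3 glutamatergic cells under 4000000 counts and the removal of cells 1, 3 and 12 were chosen after seeing the data. No paired analysis was possible because replicate numbers only name cells in accession order. A count of 0 in 12 cells limits the share of cells with a count, not of cells that express the gene.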
